A study of Mus musculus with 36 samples.

Results

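P-body enrichment was compared between control and Nudt21 knockdown mouse embryonic fibroblasts (MEFs) at day 3 of reprogramming, in 8 of the 36 samples of the series. The 8 libraries were chosen by their sample titles and fell into 4 groups of 2, namely P-body RNA and cytoplasmic RNA from control cells and the same 2 fractions from knockdown cells. All of the cells carried a doxycycline-inducible cassette of Oct4, Klf4, Sox2 and Myc in the Col1a1 locus, an M2-rtTA transactivator at Rosa26 and a Pou5f1-EGFP reporter, and all received doxycycline and a lentivirus encoding GFP-LSM14A, by which P-bodies were sorted as particles. The knockdown cells also expressed a short hairpin RNA against Nudt21, whereas the hairpin or vector of the controls was not given in the sources used here. The study's methods give 1 hairpin sequence, and the cassette and GFP-LSM14A are overexpressed, so that counts per gene do not separate their transcripts from endogenous Pou5f1, Sox2, Klf4, Myc or Lsm14a. The labels number the replicates but do not say whether they were separate cultures, and p-values then measure the spread between these libraries, which may be technical.

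P-bodies are cytoplasmic condensates in which untranslated mRNA gathers with decapping factors, the helicase DDX6 and microRNA effector proteins. NUDT21, also named CFIm25, is the RNA-binding subunit of cleavage factor Im, which binds UGUA motifs upstream of cleavage sites and favours distal polyadenylation. Loss of NUDT21 is known to shift many transcripts to proximal sites, which shortens their 3′ UTRs and can remove microRNA sites. The comparison addresses whether P-body localization changes when 3′ ends are shifted in this way. Enrichment is given as the log2 ratio of P-body over cytoplasm in 1 condition, and the difference in enrichment is the knockdown value minus the control value, so that a negative difference means relatively less of a transcript in knockdown P-bodies. Gene counts do not show which 3′ end was used, and the length of 3′ UTRs in these cells was not measured here.

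The libraries held 19384697 to 30752622 reads assigned to genes. The 2 control P-body libraries stood apart from each other, with an SD of 0.398 for the log2 difference between replicates across 9700 genes of a mean of at least 10 CPM, a count scaled to the size of the library. The same SD was 0.135 in control cytoplasm, 0.235 in knockdown P-bodies and 0.154 in knockdown cytoplasm. Of the 8 fibroblast markers all were tested, and their summed level was 4569 to 5210 CPM in control P-bodies, 8005 to 8145 CPM in control cytoplasm, 1842 to 2024 CPM in knockdown P-bodies and 3182 to 3214 CPM in knockdown cytoplasm, with Pdgfra at no more than 2.61 CPM in any library. Of the markers of other cells, 3 of 8 macrophage, 6 of 6 endothelial, 3 of 7 skeletal muscle, 7 of 7 erythroid, 1 of 6 lung epithelial and 5 of 6 neuronal genes had enough reads to be tested. The macrophage sum was 11.7 to 16.3 CPM in control libraries and 102 to 113 CPM in knockdown libraries, almost all of it Cd68, a lysosomal membrane protein, whereas Csf1r and Lyz2 stayed at or under 1.04 CPM. The neuronal sum was 202 to 263 CPM in control libraries and 369 to 469 CPM in knockdown libraries, mostly Stmn2, a microtubule regulator, with Snap25 at no more than 0.312 CPM. The endothelial sum of 122 to 212 CPM was mostly Tek, the erythroid sum of 7.12 to 23.4 CPM mostly Hbb-y, the skeletal muscle sum was 2.83 to 15.9 CPM and the lung epithelial sum 0 to 0.642 CPM. The part of other cells in the results below was not tested.

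Nudt21 itself was low in all 4 knockdown libraries. Its control level was 105.9 and 116 CPM in P-body RNA, against 88.8 and 92.1 CPM for cytoplasmic RNA. Its knockdown level was 6.03 and 5.54 CPM in P-body RNA, against 5.68 and 5.01 CPM for cytoplasmic RNA, which is 19.2-fold and 16.8-fold lower than in the control fractions. The groups of the 2 conditions did not overlap, and the remaining transcript was divided between the fractions much as in control cells, with a difference in enrichment of −0.19 ± 0.19 (SE, n = 2 libraries per group; edgeR adjusted p = 0.895). The other subunits of cleavage factor Im are encoded by Cpsf6 and Cpsf7. Cpsf6 mRNA rose in both fractions of the knockdown, from 118 to 128 CPM over the 4 control libraries to 267 to 294 CPM over the 4 knockdown libraries, and its difference in enrichment was −0.13 ± 0.14.

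Many transcripts differed in level between knockdown and control cells, but the difference in P-body enrichment passed the test for only 2 of 16973 genes. These were the long noncoding RNAs Kcnq1ot1 and Xist, which both fell from P-bodies relative to the cytoplasm, and they make up 0.0118% of the genes tested by the quasi-likelihood test of edgeR at an adjusted p under 0.05. No gene rose in relative enrichment at this threshold, which is 0% of genes, against 356, or 2.1%, at an unadjusted p under 0.05 and 3 in DESeq2. At the unadjusted threshold 819 genes were reached, 4.83% of those tested, of which 463 were lower and 356 higher. DESeq2 called 27 genes, 0.159%, of which 24 were lower and 3 higher, and gave no adjusted p for 8556 genes. Limma voom with sample weights called 3 genes, Kcnq1ot1, Malat1 and Xist.

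The precision of single genes was as follows. Among 9700 genes of at least 10 CPM the median SE of the difference was 0.208, and the 95% interval of the median gene reached 0.461 to either side on the log2 scale. For 8465 of these genes, 87.3%, the whole interval lay within 1 log2 unit of no difference. The difference itself was over 1 log2 unit, in either direction, for 32 genes, and its middle 50% ran from −0.14 to 0.18 around a median of 0.03. These intervals are not adjusted for the number of genes, and differences well outside them, such as that of Neat1 at −1.04 ± 0.17, did not pass the adjusted test with 2 libraries in each group.

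**Figure D1:**
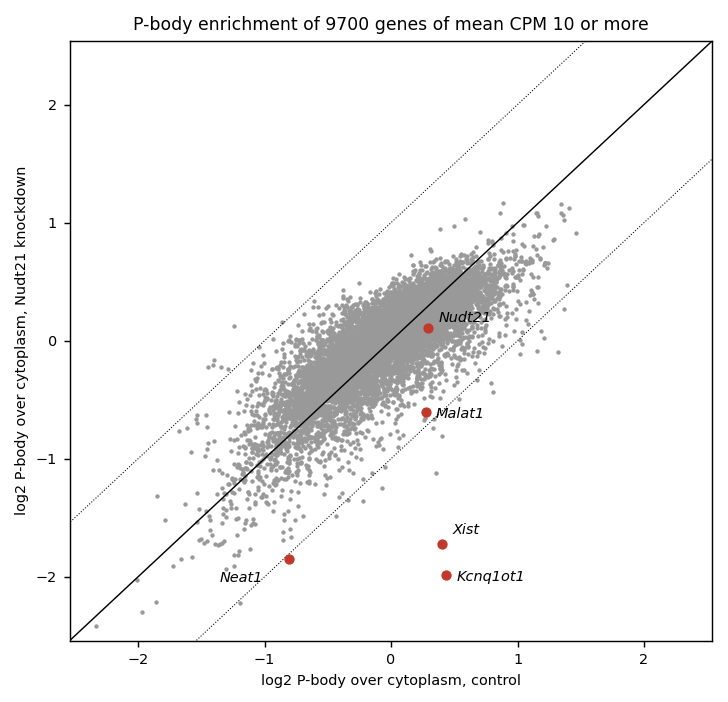
Log2 P-body over cytoplasm in control cells (horizontal) and in Nudt21 knockdown cells (vertical) for 9700 genes of a mean of at least 10 CPM, with a solid line at equal enrichment and dotted lines at a difference of 1 log2 unit. Kcnq1ot1 and Xist lie farthest below the line, at differences of −2.42 and −2.12, and Nudt21 lies near it.

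P-body-enriched and P-body-depleted transcripts were called in each condition. In control cells 2337 genes, 13.8%, passed the edgeR test, 939 enriched (5.53%) and 1398 depleted (8.24%). In knockdown cells 1351 genes, 7.96%, passed, 406 enriched (2.39%) and 945 depleted (5.57%). The 2 conditions shared 920 calls of the same direction, which is 39.4% of the control calls and 68.1% of the knockdown calls, and no gene was called with opposite signs. Across the 9700 genes the enrichment values of the 2 conditions, which share no library, had a Pearson correlation of 0.805. A gene called in 1 condition and not in the other is not shown to differ between them by that alone, and the test of the difference gave the 2 genes above.

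The levels themselves moved widely and in parallel in the 2 fractions. Between knockdown and control, 5238 genes, 30.9%, passed in P-body RNA, 16.2% higher and 14.6% lower. In cytoplasmic RNA 4364 genes, 25.7%, passed, 13.3% higher and 12.4% lower. Of these, 3520 moved in the same direction in both fractions, 67.2% of the P-body calls and 80.7% of the cytoplasmic calls, and the log2 changes had a Pearson correlation of 0.913 over the 9700 genes. Among collagens, laminins and other fibrillar or basement membrane matrix genes, 21 of 30 fell in the cytoplasm and 20 fell in P-bodies. Of 28 SR and hnRNP splicing proteins, 14 fell in each fraction, and of 26 contractile and mesenchymal genes of fibroblasts 19 fell in the cytoplasm and 20 in P-bodies. In bulk samples fewer cells of a type and less RNA per cell cannot be told apart. By count, more known let-7 targets rose than fell, with 16 of 28 higher in the cytoplasm and 12 higher in P-bodies, and 2 and 6 lower. Their summed level fell, from 5763 and 5844 CPM to 4268 and 4571 CPM in the cytoplasm. In P-bodies it fell from 4963 and 5645 CPM to 3536 and 3830 CPM. Of 21 pluripotency and early reprogramming genes 8 rose in the cytoplasm and 7 in P-bodies, with 0 and 1 lower. Pou5f1, the gene of the Oct4 transcription factor, had 193 and 179 CPM in control cytoplasm, 399.7 and 437 CPM in knockdown cytoplasm, 92.4 and 54.5 CPM in control P-bodies and 164 and 222 CPM in knockdown P-bodies. Its level rose in both fractions, and its difference in enrichment was 0.22 ± 0.30 (edgeR adjusted p = 0.928). Without control P-body replicate 1 this difference was 0.65, and without replicate 2 it was −0.11. These counts do not separate endogenous Pou5f1 from the Oct4 of the cassette.

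Only 4 genes were called in opposite directions in the 2 fractions, namely Kcnq1ot1, Xist, Neat1 and Sos1, which are named here after their values were seen. All 4 fell in P-bodies and rose in the cytoplasm of the knockdown. Sos1 encodes an exchange factor of Ras, and its difference in enrichment of −1.13 ± 0.26 did not pass the edgeR test of the difference (adjusted p = 0.775).

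Kcnq1ot1 is a long RNA transcribed antisense to Kcnq1 that silences neighbouring genes of its imprinted cluster in the nucleus (mm10 chromosome 7, 143203458 to 143296549, minus strand). Control cells had 27.1 and 25.7 CPM of it in P-bodies, against 20.4 and 18.7 CPM for cytoplasm. Knockdown cells had 13.2 and 12.03 CPM in P-bodies, against 49.5 and 50.5 CPM for cytoplasm. The 4 groups did not overlap, and P-bodies were the higher fraction in control cells and the lower one in the knockdown. Enrichment was 0.43 ± 0.14 in control cells (edgeR adjusted p = 0.0592) and −1.99 ± 0.14 in knockdown cells (adjusted p = 0.000232). The difference was −2.42 ± 0.19, with a 95% interval of −2.85 to −1.99 and an edgeR adjusted p of 0.00256. The P-body level fell by 1.06 and the cytoplasmic level rose by 1.36 on the log2 scale, and both changes passed (adjusted p = 0.000296 and 7.16e-05 by edgeR). The library kit does not mark strand, but the sense gene Kcnq1 was at 0 to 0.156 CPM in all 8 libraries.

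Xist coats and silences the inactive X chromosome (chromosome X, 103460366 to 103483254, minus strand). It stood at 30.3 and 33.7 CPM in control P-bodies, 26.5 and 21.7 CPM in control cytoplasm, 16.5 and 13.5 CPM in knockdown P-bodies and 50.1 and 48.5 CPM in knockdown cytoplasm. The pattern was that of Kcnq1ot1, with no overlap between groups. Enrichment was 0.41 ± 0.16 in control cells (edgeR adjusted p = 0.109) and −1.72 ± 0.16 in knockdown cells (adjusted p = 0.000771). The difference was −2.12 ± 0.22, with a 95% interval of −2.62 to −1.63 and an edgeR adjusted p of 0.0170. With same-numbered fractions of a condition as a replicate block the difference was −2.13 and missed the threshold (edgeR adjusted p = 0.0793). Its overlapping antisense gene Tsix, whose reads cannot be told apart from those of Xist where they overlap, stood at 2.70 to 13.5 CPM with a difference of −2.21 ± 0.59 (edgeR adjusted p = 0.822). The summed level of 4 Y-linked genes was 0 to 0.574 CPM in the 8 libraries.

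**Figure D2:**
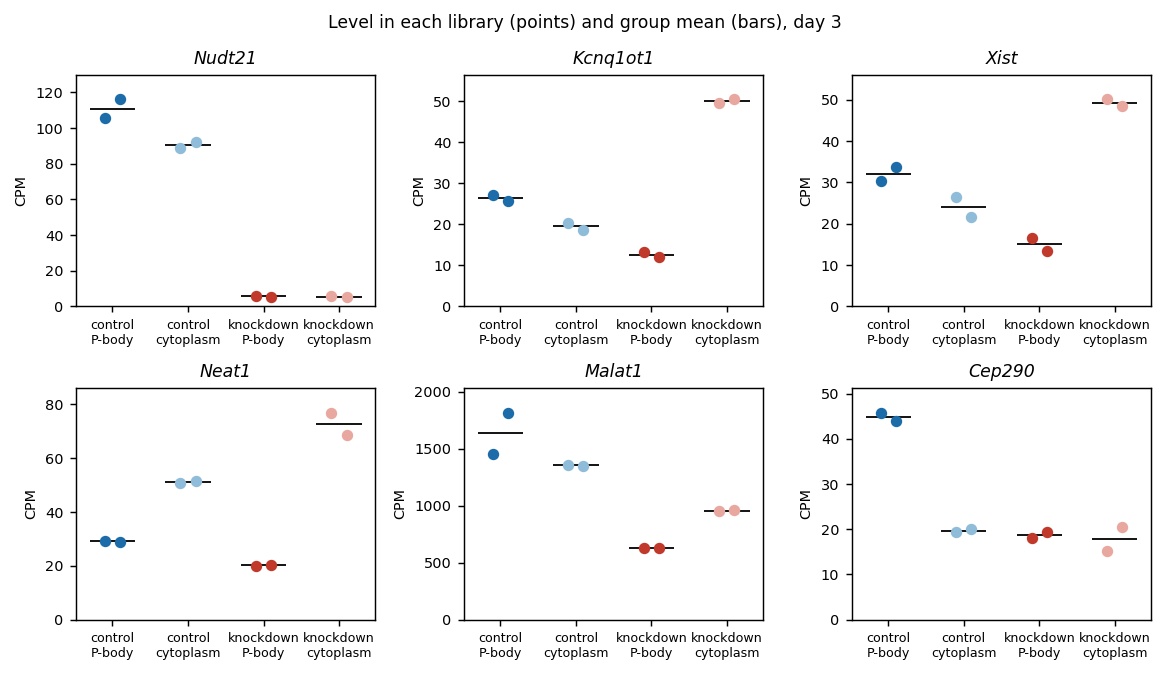
CPM of 6 genes in each of the 8 libraries (points) with the mean of each group of 2 (bars). Nudt21 is low in all 4 knockdown libraries, Kcnq1ot1 and Xist are lowest in knockdown P-bodies and highest in knockdown cytoplasm, and Cep290 is high in control P-bodies only.

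Other RNAs that are mainly nuclear also had negative differences, which did not pass in edgeR, but their groups stood in another order. Neat1, the scaffold of paraspeckles, stood at 29.4 and 29.0 CPM in control P-bodies, 50.7 and 51.6 CPM in control cytoplasm, 19.9 and 20.4 CPM in knockdown P-bodies and 76.9 and 68.5 CPM in knockdown cytoplasm. Its groups did not overlap, it was already depleted from control P-bodies, at −0.81 ± 0.12 (edgeR adjusted p = 0.00478), and its difference was −1.04 ± 0.17 (edgeR adjusted p = 0.530, DESeq2 adjusted p = 0.000377). Malat1, a nuclear speckle RNA, was the most abundant of the list, at 1452 and 1815 CPM in control P-bodies, 1357 and 1349 CPM in control cytoplasm, 629 and 629.6 CPM in knockdown P-bodies and 953 and 959 CPM in knockdown cytoplasm. Its difference was −0.88 ± 0.15 (edgeR adjusted p = 0.562, DESeq2 adjusted p = 0.0013). Unlike Kcnq1ot1, Malat1 fell in both fractions of the knockdown, by 1.38 in P-bodies and by 0.50 in the cytoplasm on the log2 scale. Over the 15 tested members of the list of nuclear and host-gene noncoding RNAs the median difference was −0.64, against 0.03 over all genes. Above 0 were 52.9% of all genes, whereas 12 of the 15 members were below 0. The list includes Kcnq1ot1, described above, but not Xist, so that Kcnq1ot1 enters this median and these counts. It was the 1 member that passed the edgeR test. At an unadjusted p under 0.05, 4 members were lower, against 2.73% of all genes. DESeq2 called 3 members, Kcnq1ot1, Neat1 and Malat1. The snoRNA hosts of the list ran from 0.04 ± 0.30 for Snhg1 to −0.72 ± 0.41 for Snhg8, with the most abundant, Gas5, at 0.01 ± 0.23, and none passed. At 10 CPM or more the list held 8 genes with a median of −0.24. Without control P-body replicate 1 or 2 the median of the list was −0.94 or −0.26. The summed level of the list was 1962 and 2512 CPM in control P-bodies, 1843 and 1822 CPM in control cytoplasm, 1303 and 1169 CPM in knockdown P-bodies and 1487 and 1524 CPM in knockdown cytoplasm. Nuclei were removed by a spin before sorting, and the part of nuclear RNA left in the cytoplasmic fraction was not tested.

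When each of the 8 libraries was left out in turn, Kcnq1ot1 and Xist stayed lower at a similar size, but not always past the threshold. The difference of Kcnq1ot1 ran from −2.50 to −2.36. It passed without either control P-body library (edgeR adjusted p = 3.96e-05 and 5.02e-05) and without knockdown P-body replicate 1 (0.0408), and missed the threshold without knockdown P-body replicate 2 (0.0659), control cytoplasm replicates 1 and 2 (0.0578 and 0.0866) and knockdown cytoplasm replicates 1 and 2 (0.0603 and 0.0613). The difference of Xist ran from −2.28 to −1.99, and passed only without control P-body replicate 1 or 2 (edgeR adjusted p = 0.000177 and 0.00117). Without any 1 of the other 6 libraries its adjusted p was 0.102 to 0.279.

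Beside the 2 called RNAs, the genes of lowest p with a lower difference at a mean of at least 10 CPM were Neat1, Zfp704, Malat1, Rc3h1, Slk, Cep290, Eea1 and Atrx, none of which passed in edgeR and all of which DESeq2 called. Zfp704, a zinc finger protein, had 135 and 138 CPM in control P-bodies, 114 and 112 CPM in control cytoplasm, 27.5 and 29.3 CPM in knockdown P-bodies and 47.2 and 42.3 CPM in knockdown cytoplasm. Its level fell in both fractions, by 2.26 in P-bodies and by 1.34 in the cytoplasm on the log2 scale, and its difference was −0.93 ± 0.16 (edgeR adjusted p = 0.530). Rc3h1, which encodes the RNA-binding repressor Roquin, had 66.5 and 81.9 CPM in control P-bodies, 50.7 and 42.0 CPM in control cytoplasm, 122 and 124 CPM in knockdown P-bodies and 154 and 155 CPM in knockdown cytoplasm. Its level rose in both fractions, by 0.73 in P-bodies and by 1.74 in the cytoplasm on the log2 scale, with a difference of −1.01 ± 0.19 (edgeR adjusted p = 0.671). Cep290, a protein of the ciliary base, had 45.8 and 44.0 CPM in control P-bodies and 15.1 to 20.5 CPM in the 6 other libraries, with a difference of −1.11 ± 0.23 (edgeR adjusted p = 0.753). The kinase gene Slk (−0.97 ± 0.20), the endosomal tether Eea1 (−0.82 ± 0.18) and the chromatin remodeller Atrx (−0.63 ± 0.13) had the same edgeR adjusted p of 0.753.

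The 10 genes of lowest p with a higher difference were Ergic1, Reep3, Stk35, Tmx4, Tm9sf4, Sft2d2, Mras, Tgfbr2, Cyb5b and Lmnb1, and none passed in edgeR. Ergic1, a protein of the ER-Golgi intermediate compartment, had 204 and 185 CPM in control P-bodies, 295 and 315 CPM in control cytoplasm, 221 and 210 CPM in knockdown P-bodies and 200.1 and 190 CPM in knockdown cytoplasm. It was depleted from control P-bodies, at −0.65 ± 0.10 (edgeR adjusted p = 0.00526), and not from knockdown P-bodies, at 0.14 ± 0.10 (adjusted p = 0.44), and the difference was 0.80 ± 0.14 (edgeR adjusted p = 0.601, DESeq2 adjusted p = 0.00129). Reep3, an ER-shaping protein, had a difference of 0.81 ± 0.17 and Stk35, a kinase, one of 0.81 ± 0.17, and DESeq2 called both. Tgfbr2, the type II receptor of TGF-β and a known target of the miR-17 and miR-290 families, stood at 85.2 and 79.2 CPM in control P-bodies, 135 and 133 CPM in control cytoplasm, 97.0 and 102 CPM in knockdown P-bodies and 113 and 106 CPM in knockdown cytoplasm. Its difference was 0.56 ± 0.15 (edgeR adjusted p = 0.775).

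The genes of lowest p with a lower difference had long coding regions and a low GC content. At a mean of at least 10 CPM, 301 genes were lower and 229 higher at an unadjusted p under 0.05. The lower genes with an annotated 3′ UTR, 287 in number, had a median coding length of 3183 bases and a median GC content of 44.9%. The higher genes, 228 in number, had 1257 bases and 48.9%, and all 9338 annotated genes of this level had 1389 bases and 49.8%. For the 19 annotated genes among the 24 that DESeq2 called lower these medians were 4236 bases and 42.6%. These sets were chosen by their difference, so their features are a description.

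The lists of genes by function were described next, each by its counts and its median beside the median of 0.03 over all genes. A difference above 0 was found for 52.9% of all genes tested and for 55.7% of those of at least 10 CPM. Apart from Kcnq1ot1, no member of any list passed the edgeR test of the difference. Among cleavage and polyadenylation factors, the median over 21 genes was −0.01. The lowest p in this list were those of Pcf11, a subunit of cleavage factor II, at −0.70 ± 0.19, Rbbp6 at −0.33 ± 0.14 and Cstf2, a subunit of the cleavage stimulation factor, at 0.42 ± 0.18. For 10 transcripts known to shorten on loss of CFIm25 the median was 0.02, with 5 above and 5 below 0. Timp2, an inhibitor of metalloproteinases, gave 0.51 ± 0.14 and Wdr5, a subunit of histone methyltransferase complexes, 0.41 ± 0.16, whereas Dicer1 gave −0.36 ± 0.19.

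For the proteins that build P-bodies, the median difference of their own mRNAs was near that of all genes. Over 21 P-body core and decapping genes the median was 0.02, and 12 of 21 were above 0. Single genes ran from −0.63 to 0.49. Ddx6, the helicase required for P-bodies, gave 0.02 ± 0.18, Lsm14a gave 0.02 ± 0.15 and the scaffold gene Edc4 0.14 ± 0.24. Without control P-body replicate 1 the difference of Edc4 was 0.46, and without replicate 2 it was −0.12. Dcp1a, a decapping cofactor, had the lowest p of the list, at 0.49 ± 0.20. The deadenylase list had a median of 0.03 over 18 genes, and its lowest p was that of Cnot4, at −0.47 ± 0.17. Among 14 tested genes of microRNA processing and Argonaute function the median was 0.04. Here Tnrc6a and Tnrc6b, scaffolds that link Argonaute to deadenylases, were at −0.66 ± 0.21 and −0.46 ± 0.18, and Xpo5 and Drosha, which act in microRNA maturation, at 0.44 ± 0.17 and 0.41 ± 0.16. Ago2 was at 0.30 ± 0.22 while its level rose from 39.9 and 30.9 CPM to 123 and 161 CPM in P-bodies.

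Of 28 kinesin, centrosome and centromere genes 23 were below 0. Their median was −0.21, and 8 were lower and 0 higher at an unadjusted p under 0.05, against 2.73% lower and 2.1% higher over all genes. Cenpe, a kinetochore kinesin, had 240.1 and 238 CPM in control P-bodies, 164 and 160 CPM in control cytoplasm, and 168 to 178 CPM in the 4 knockdown libraries. Akap9, a centrosomal scaffold, had 152 and 168 CPM in control P-bodies and 84.0 to 102 CPM in the 6 other libraries. For both, as for Cep290, control P-bodies were the high group and the other groups were close to each other. The differences were −0.61 ± 0.13 for Cenpe and −0.75 ± 0.17 for Akap9, and DESeq2 called 3 genes of the list. The coding length of this list was long, at a median of 4698 bases. Chromatin remodelling genes had a median of −0.16 over 26 genes with 5 lower and 1 higher at an unadjusted p under 0.05, among them Atrx and the helicase gene Chd9 (−0.59 ± 0.17) as lower. Without control P-body replicate 1 their median was −0.01, with 13 of 26 above 0, and without replicate 2 it was −0.18. Their coding length had a median of 5310 bases. Over 353 numbered zinc finger genes the median was −0.07, and 17 were lower and 3 higher at an unadjusted p under 0.05. At 10 CPM or more these counts were 13 and 0 of 240, against 301 and 229 of all 9700 genes. The sign of this list changed with the control P-body library, from 0.09 without replicate 1, with 203 of 350 above 0, to −0.20 without replicate 2.

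Ribosomal protein genes changed sign with the control P-body library. Over 83 genes the median difference was −0.19 and 76 were below 0, but no member had an unadjusted p under 0.05. Their summed level was 35036 and 51679 CPM in control P-body replicates 1 and 2, 28626 and 29078 CPM in control cytoplasm, 38965 and 35637 CPM in knockdown P-bodies and 26276 and 30164 CPM in knockdown cytoplasm. Control P-body replicate 2 was the highest of all libraries. Without control P-body replicate 1 the median was −0.48, with 2 of 83 genes above 0, and without control P-body replicate 2 it was 0.16, with 79 of 83 above 0. Rpl13a, a protein of the large subunit, had 302.2 and 566 CPM in control P-bodies, 235 and 242 CPM in control cytoplasm, 279 and 277 CPM in knockdown P-bodies and 186 and 263 CPM in knockdown cytoplasm, and a difference of −0.55 ± 0.34. Respiratory chain genes, another list of short transcripts, changed sign in the same way, from −0.22 without control P-body replicate 1 to 0.19 without replicate 2, around −0.04 with both.

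Matrix genes lay on the other side. Their median was 0.11 and 25 of 30 were above 0. Lamc1, a laminin chain, had 159 and 120.3 CPM in control P-bodies, 325 and 333 CPM in control cytoplasm, 597 and 736 CPM in knockdown P-bodies and 1081 and 1121 CPM in knockdown cytoplasm, and a difference of 0.51 ± 0.20. Its level was higher in both knockdown fractions, and its depletion from P-bodies was −1.24 in control and −0.72 in knockdown cells. Without control P-body replicate 1 the list median was 0.29, and without replicate 2 it was −0.02.

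The medians of the further lists were as follows. Cholesterol genes stood at 0.15 (15 of 20 above 0), cell cycle genes at 0.14 (23 of 30), chaperones at 0.10 (22 of 30), proteasome subunits at 0.03, splicing proteins at 0.03, translation factors at 0.00, histone methyltransferases and demethylases at −0.05, RNA polymerase II and Mediator at −0.07, contractile and mesenchymal genes at −0.10, regulators that bind AU-rich elements at −0.16 and immediate early genes at −0.20. Cholesterol, cell cycle, chaperone, AU-rich and immediate early genes kept the sign of their median without control P-body replicate 1 or 2. The other lists just named changed sign. Translation factors, for instance, stood at −0.13 without replicate 1 and at 0.04 without replicate 2. Among the AU-rich regulators Zfp36l2, which promotes mRNA decay, had a difference of −0.69 ± 0.21. Epithelial genes had a median of −0.12 over 20 genes and pluripotency genes one of −0.48 over 21, but only 5 and 7 of them had at least 10 CPM, with medians of 0.03 and −0.10. The lowest p of the pluripotency list was that of Fut9, an enzyme that makes the SSEA-1 epitope, at 5.90 and 11.8 CPM in control P-bodies, 2.87 and 2.998 CPM in control cytoplasm and 11.6 to 14.2 CPM in the knockdown. Its difference was −1.45 ± 0.41 (edgeR adjusted p = 0.894).

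**Figure D3:**
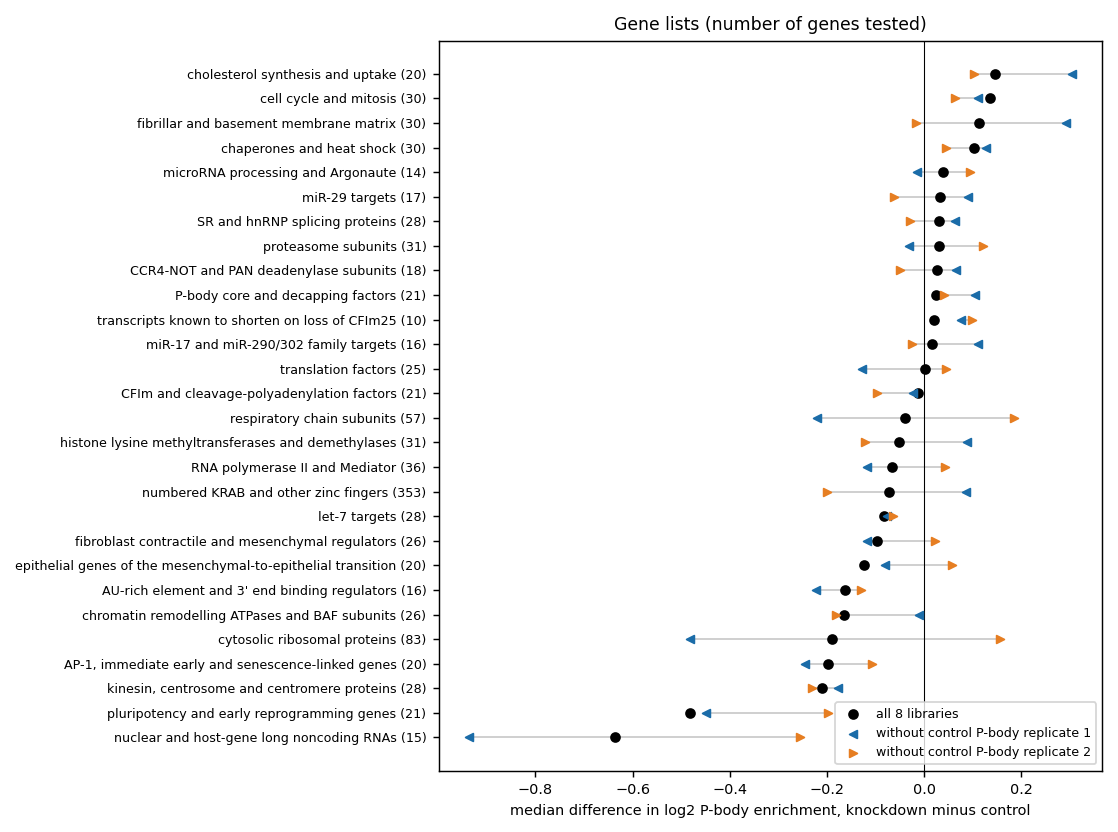
Median difference in P-body enrichment (knockdown minus control, log2) of each list of genes with all 8 libraries (black), without control P-body replicate 1 (blue) and without control P-body replicate 2 (orange), with the number of genes tested in parentheses. Nuclear noncoding RNAs and kinesin and centrosome genes stay below 0 in all 3, whereas ribosomal proteins run from −0.48 to 0.16.

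MicroRNA sites were examined because shorter 3′ UTRs can lose them. One mature sequence is shown for each of 6 seed families, taken from RefSeq (GRCm38.p6) and written 5′ to 3′ with the seed, bases 2 to 8, in capitals. They are the families whose known targets were listed, and miR-21, which is prominent in fibroblasts. The family of miR-300 was added because the study reported this microRNA as enriched in P-bodies of pluripotent cells. MicroRNAs were not measured in these libraries.
mmu-let-7a-5p: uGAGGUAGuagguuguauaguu
mmu-miR-17-5p: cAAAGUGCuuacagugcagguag
mmu-miR-294-3p: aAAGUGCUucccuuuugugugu
mmu-miR-29a-3p: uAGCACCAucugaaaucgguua
mmu-miR-300-3p: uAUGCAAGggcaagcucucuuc
mmu-miR-21a-5p: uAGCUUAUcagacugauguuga
The seeds of miR-17 and miR-294 overlap by a shift of 1 base, so that their matches share letters. The reverse complement of each seed was searched on the sense strand of the longest annotated 3′ UTR of each gene, which for let-7 is CTACCTC, for miR-17 GCACTTT, for miR-294 AGCACTT, for miR-29 TGGTGCT, for miR-300 CTTGCAT and for miR-21 ATAAGCT. A let-7 match was held by 961 of 9338 coding genes of at least 10 CPM, 10.3%, against 8.98% of all 20657 annotated 3′ UTRs. A match shows letters in the annotation and not a site in use.

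Genes with a match had a higher median change in the knockdown than genes without, in both fractions, and a median difference in enrichment close to theirs. For let-7 the median log2 change between knockdown and control was 0.19 with a match and 0.03 without in P-bodies, and 0.16 against 0.01 in the cytoplasm. The median difference in enrichment was 0.05 with a match and 0.03 without. For the other 5 families the medians of the difference were 0.04 to 0.05 with a match and 0.03 to 0.04 without. Matches are more frequent in long 3′ UTRs. Within the longest 20% of 3′ UTRs, those from 2696 bases, the let-7 medians were 0.27 and 0.15 in P-bodies, 0.24 and 0.14 in the cytoplasm and 0.03 and 0.02 for the difference. For miR-300 the order in these long 3′ UTRs was the opposite in both fractions, at 0.13 with a match and 0.19 without in P-bodies and at 0.14 and 0.17 in the cytoplasm. Without control P-body replicate 1 the difference for let-7 was 0.11 with a match and 0.06 without, and without replicate 2 it was 0.02 and 0.03. The listed let-7 targets, which were chosen from knowledge of the microRNA and not from a seed search, had a median difference of −0.08 over 28 genes. The lowest p was that of the transcription factor gene Plagl2, at −0.44 ± 0.18. Hmga2, a chromatin architectural factor, had 90.7 and 135 CPM in control P-bodies and 77.1 to 83.8 CPM in the other 6 libraries, with a difference of −0.47 ± 0.23 (edgeR adjusted p = 0.894). The RNA-binding proteins Igf2bp1 and Igf2bp2 were at 0.07 ± 0.14 and −0.04 ± 0.14. The listed targets of the miR-17 and miR-290 families had a median of 0.02 over 16 genes, and those of miR-29 a median of 0.03 over 17.

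**Figure D4:**
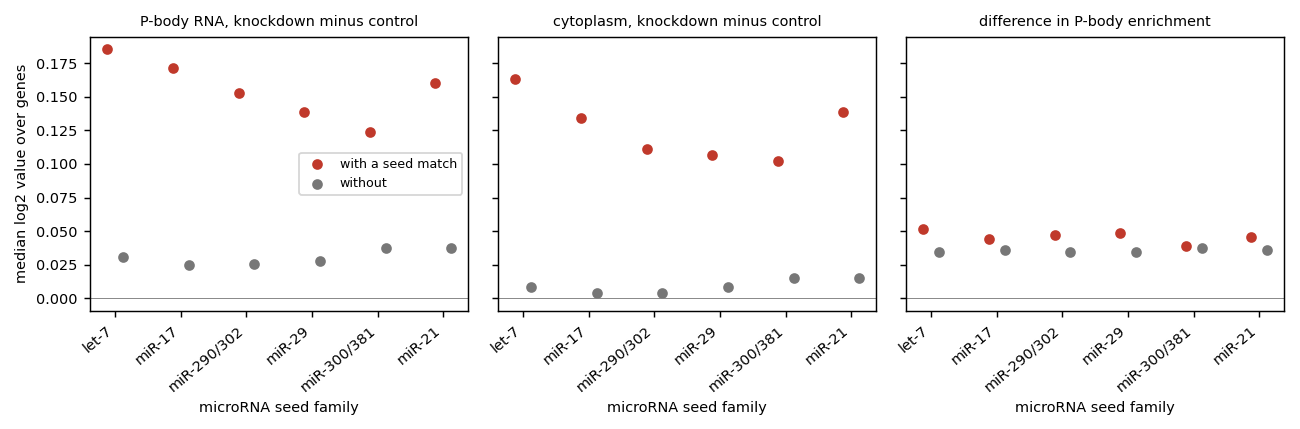
Median log2 value of genes with (red) and without (grey) a seed match in the annotated 3′ UTR for 6 microRNA families, as the knockdown effect in P-body RNA (left), in the cytoplasm (middle) and as the difference in P-body enrichment (right). In both fractions genes with a match lie higher, by about the same amount, and in the right panel the 2 sets lie close together, at 0.05 and 0.03 for let-7.

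The annotated length of the 3′ UTR had a weak relation to the difference in enrichment. Across 9338 coding genes of at least 10 CPM, which share the 8 libraries, the Spearman correlation was 0.07, against −0.24 for enrichment in control cells and −0.23 for enrichment in knockdown cells. From the shortest to the longest 20% of 3′ UTRs the median difference was 0.00, 0.02, 0.06, 0.09 and 0.02. The density of UGUA motifs, counted on the sense strand per kilobase of 3′ UTR, had a correlation of −0.04. Coding length was the strongest correlate of enrichment in each condition, at −0.51 in control and −0.59 in knockdown cells, so that long messages were depleted from P-bodies in both, yet its correlation with the difference was 0.02. Among the longest 20% of coding regions 167 of 1866 genes were lower and 21 higher at an unadjusted p under 0.05, whereas among the shortest 20% 20 were lower and 44 higher. Over all 9338 genes 287 were lower and 228 higher. These counts are from all 8 libraries and are not given without either control P-body library.

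These correlations changed sign with the control P-body library. Without control P-body replicate 1 the correlation of the difference with coding length was 0.21, and without control P-body replicate 2 it was −0.37. For 3′ UTR length the values were 0.15 and −0.11, and for UGUA density 0.02 and −0.15. The log2 ratio of control P-body replicate 1 over replicate 2 itself had a correlation of 0.42 with coding length, against −0.25 for the knockdown P-body pair, 0.12 for control cytoplasm and 0.10 for knockdown cytoplasm. The ratio of the knockdown P-body pair had a correlation of −0.54 with GC content. In the count of calls, too, the control P-body pair weighed most. Without replicate 1, which leaves the control P-body group with 1 library that is assumed to vary like the others, 2185 genes passed in edgeR, 13.0% of those tested, 1430 higher and 755 lower. Without replicate 2 only 4 passed, namely Kcnq1ot1, Malat1, Rif1 and Xist, all of which were among the 2185. Of the genes that passed without replicate 1 and were also tested without replicate 2, 72.9% had the same sign of difference in both fits. These 2 fits share all libraries but those of control P-bodies, and the genes were chosen by 1 of the fits. Part of the agreement in sign is therefore built in, and the share over all genes is not given here. Kcnq1ot1, Xist, Malat1 and Neat1 were lower in each fit.

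**Figure D5:**
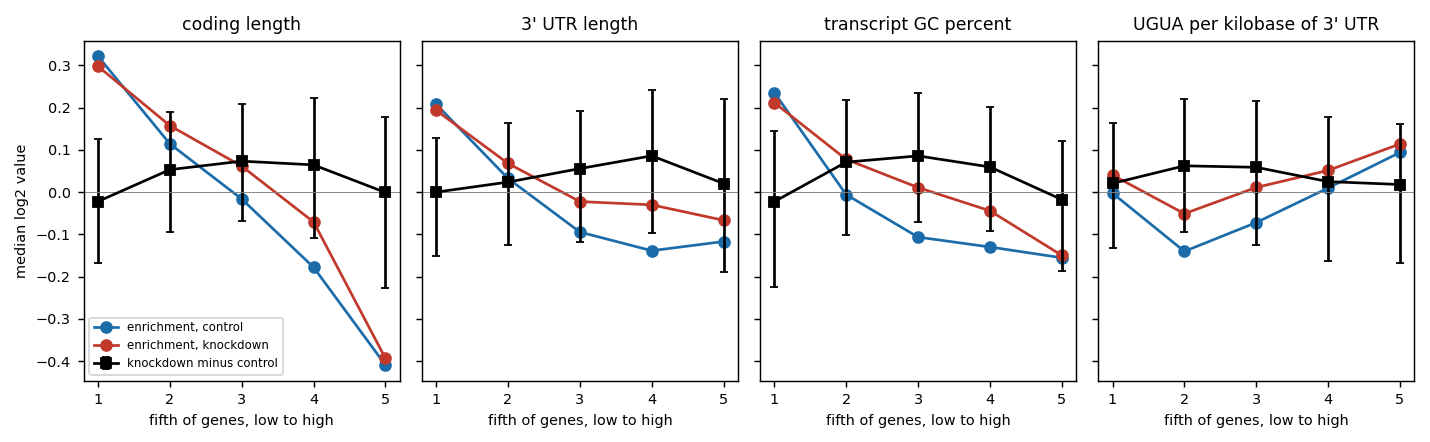
Median log2 P-body enrichment in control (blue) and knockdown cells (red) and median difference between them (black, with bars from the 25th to the 75th percentile of genes) in 5 equal groups of 9338 coding genes, by coding length, 3′ UTR length, GC content and UGUA density. Enrichment falls with coding length in both conditions, from 0.32 to −0.41 in control cells, while the medians of the difference stay between −0.02 and 0.09.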

How the data were processed

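RNA of sorted P-bodies and of presort cytoplasm was sequenced by Smart-seq. Per the labels and the study's methods, the authors aligned paired reads to mm10 with HISAT2 and deposited estimated counts per refGene gene from featureCounts. How shared reads were divided is not given in the sources used here, but 18.1% to 22.9% of the values per library were not whole, and all were rounded. A further 10 deposited tables with the authors' comparisons (fold changes and p-values) were not used. All 20 columns of counts matched a sample title, and 8 entered the comparison. No row lacked a gene name.

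In R 4.3.3, edgeR 4.0.16 fitted the 8 libraries together by quasi-likelihood, with 4 group means, TMM scaling and genes of at least 10 summed reads. Tests were two-sided contrasts with Benjamini-Hochberg adjustment over all genes. CPM are TMM-scaled. Intervals are 95% and cover the spread between libraries. Alternatives were DESeq2 (version 1.42.0), limma voom with sample weights (version 3.58.1), DESeq2 size factors, other filters, 2 replicate blocks, all 20 libraries and leaving out each library. Seed matches, lengths and GC content came from the longest transcript of each gene in GENCODE M21 (GRCm38), matched by symbol for 16534 of 16973 genes, and 3′ UTRs of at least 50 bases were kept. Scripts were tested on simulated data. Named genes were the 10 of lowest p in each direction at 10 CPM or more, called or not, and for each list members of lowest p. List members named outside this rule (Cpsf6, Pou5f1, Ddx6, Lsm14a, Edc4, Ago2, Dicer1, Gas5, Snhg1, Snhg8, Hmga2, Igf2bp1 and Igf2bp2) and Sos1, Tsix and Kcnq1 were chosen after their values were seen. The comparison, members and lists were chosen with earlier results of these data known. Figures were drawn with matplotlib (version 3.10.9).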

Additional observations from a re-analysis of the deposited data

Results flagged for a closer look

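The difference in P-body enrichment of Kcnq1ot1 between knockdown and control cells was −2.42 (edgeR adjusted p = 0.00256) and that of Xist was −2.12 (adjusted p = 0.0170), by the test of the difference between the 2 conditions. In control cells the enrichment in P-bodies was 0.43 for Kcnq1ot1 and 0.41 for Xist, which did not pass (edgeR adjusted p = 0.0592 and 0.109), and in knockdown cells both were depleted, at −1.99 and −1.72 (adjusted p = 0.000232 and 0.000771). No group held enough libraries to look for single outlying samples.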

How the results depend on the processing

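The difference in P-body enrichment was called by edgeR for 2 genes, by DESeq2 for 27, without a filter on low counts for 62 and with a replicate block by preparation for 1, Kcnq1ot1, where Xist had an adjusted p of 0.0793. A block by replicate number gave 2 calls. Leaving out each library gave 0 to 2185 calls, the highest without control P-body replicate 1. Enrichment in control cells, at 2337 calls, became 3589 in DESeq2, 4004 without a filter and 8 to 6904 when each library was left out. Enrichment in knockdown cells, at 1351 calls, became 2448 in DESeq2, 3955 in limma voom, 2635 without a filter, 2100 with all 20 libraries and 54 to 4443 when each library was left out. The knockdown effect gave 3296 to 8214 calls in P-bodies and 2033 to 6826 in the cytoplasm when each library was left out, and 7963 in the cytoplasm by limma voom. The cause of these changes was not tested. Kcnq1ot1 and Xist, the genes called with all 8 libraries, were lower in every setting. Some other genes, such as Edc4 and Pou5f1, changed sign with the control P-body library that was left out. Others did not, such as Neat1 and Malat1, which were lower without any 1 library.

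The labels give the same replicate numbers to all groups but do not say what a number marks. Each P-body sample was sorted from a cytoplasmic fraction of which an aliquot was kept, so that same-numbered fractions of a condition may be 1 preparation, which the sources used here do not settle. Deviations of same-numbered libraries from their group means had correlations of 0.169 between control fractions and 0.200 between knockdown fractions, against −0.058 to 0.319 between conditions. With 2 libraries per group, and a control P-body pair that differed more than the others, differences such as −1.04 ± 0.17 for Neat1 did not pass the adjusted test.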
